A study of Arabidopsis thaliana with 50 samples.

Results

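The comparison described here is between ddc, an Arabidopsis thaliana line mutated in the DNA methyltransferase genes DRM1, DRM2 and CMT3, and SDC:GFP wild type. Its members are the libraries whose titles name ddc replicates 1 to 4 and SDC:GFP wild type replicates 1 to 4, 8 of the 50 RNA-seq libraries of the series. Both lines carry SDC:GFP, a transgene in which the promoter of SDC drives green fluorescent protein and which also gives resistance to glufosinate. The transgene was put into the drm1/drm2/cmt3 triple mutant, and SDC:GFP wild type and the SDC:GFP morc1 line were made by crossing that plant to Col-0 and to a morc1 T-DNA line, so these lines descend from 1 transformed ddc background. The ddc/med13 line, given beside ddc below, is the same SDC:GFP ddc line with a small CRISPR-CAS9 deletion in MED13. The med13 line, shown in a figure only, is a separate T-DNA mutant of MED13 from a stock center, in the wild-type background. It was not made from the SDC:GFP ddc line. RNA came from whole seedlings at 8 days of age, grown on agar medium with sucrose in long days, and the values therefore average over shoot and root. In bulk RNA of this kind, fewer cells of a type and less RNA per cell cannot be told apart.

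DNA methylation in plants occurs at CG sites and also at cytosines outside CG. DRM2 and its close relative DRM1 place methylation in all sequence contexts, guided by small RNAs in the pathway called RNA-directed DNA methylation (RdDM), and CMT3 maintains methylation at CNG sites where histone H3 carries methylation on lysine 9. The triple mutant has lost most of this non-CG methylation at many loci, while CG methylation is maintained by MET1. A well-known locus silenced by all 3 enzymes together is SDC, which encodes an F-box protein and was named as a suppressor of drm1 drm2 cmt3. The question of the comparison is which transcripts differ between seedlings with and without these enzymes.

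The promoter of SDC carries tandem repeats that are the target of this methylation, and the promoter of ROS1, a DNA glycosylase gene that removes methylated cytosines, carries a sequence whose methylation is known to be needed for ROS1 expression. Both are shown because these genes gave the clearest rise and fall of known methylation targets in the data. The 300 bases before the annotated start of each gene, on the gene's own strand in the RefSeq annotation of TAIR10.1, are given 5′ to 3′. In SDC (AT2G17690, chr2:7681862-7682161, + strand) the capitals mark 6 copies of a 32-base repeat found by a search for the period, and in ROS1 (AT2G36490, chr2:15314808-15315107, - strand) they mark the 11 CG sites.
SDC: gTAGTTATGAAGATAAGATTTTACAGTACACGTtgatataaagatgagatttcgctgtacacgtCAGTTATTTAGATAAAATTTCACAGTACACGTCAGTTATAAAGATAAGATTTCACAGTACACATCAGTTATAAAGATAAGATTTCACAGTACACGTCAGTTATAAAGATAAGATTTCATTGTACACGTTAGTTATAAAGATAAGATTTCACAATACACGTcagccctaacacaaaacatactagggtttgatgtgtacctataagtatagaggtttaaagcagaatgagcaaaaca
ROS1: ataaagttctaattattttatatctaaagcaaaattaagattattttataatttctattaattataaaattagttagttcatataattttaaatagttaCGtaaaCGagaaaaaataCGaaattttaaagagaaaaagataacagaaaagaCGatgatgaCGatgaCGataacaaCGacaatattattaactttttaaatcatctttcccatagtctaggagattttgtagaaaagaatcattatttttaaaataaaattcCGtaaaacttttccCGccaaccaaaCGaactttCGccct
The repeat array of SDC spanned 223 bases, from 299 to 77 bases before the start, and 95 of 100 positions matched the base 1 period away. The window held 7 CG and 11 CNG sites in SDC, against 11 CG and 3 CNG in ROS1. The consensus and 3 of the marked copies are given with the bases that differ from the consensus in capitals.
consensus: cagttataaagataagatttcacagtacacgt
copy 1: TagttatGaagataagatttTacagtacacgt
copy 4: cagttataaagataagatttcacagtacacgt
copy 6: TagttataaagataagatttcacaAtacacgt
Copy 4 was identical to the consensus, and the other marked copies differed from it at 1 to 3 bases. The search allowed no gaps and at most 8 differences a copy. The unmarked stretch between copy 1 and copy 2 resembles the repeat but was not counted, so the most diverged part of the array is left out of these differences.

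The ddc libraries held 2767761 to 3340821 counts and the SDC:GFP wild-type libraries 3222705 to 3492942, so the depth was similar on both sides. The labels do not pair these groups and name no batch, while the methods of the study say that plants were raised side by side and collected together. Whether libraries were prepared or sequenced in batches is not given in the sources used here. Reads outside annotated features were 2.41% to 2.62% of the reads in ddc, 3.69% to 4.43% in SDC:GFP wild type, 2.35% to 2.56% in the 4 long-day Col-0 libraries, 2.2% to 2.66% in ddc/med13 and 3.34% to 4.5% in morc1 replicates 1 to 4. By this measure ddc, ddc/med13 and Col-0 lay together and SDC:GFP wild type lay with morc1. The 2 wild types also differed from each other in many transcripts, with 2326 features higher in SDC:GFP wild type (11.7% of 19947 tested) and 2326 lower (11.7%), whereas morc1 and SDC:GFP wild type differed at 495 features. Effects of the mutations and of the set of libraries cannot be told apart from these 8 libraries alone, so the 14 wild-type libraries of the series, which are 4 of SDC:GFP wild type, 4 of Col-0 in long days, 3 of Col-0 in the dark and 3 of Col-0 after light, are given beside each result. The Col-0 plants in the dark were kept in full darkness for a day before harvest. Those after light had the same darkness and then only minutes of light. Neither of these groups stands for plants harvested in ordinary long days. One library stood apart within its group: ddc replicate 4 was high in every member of the heat-shock list, and the results that rest on it are given without it as well. Seed and embryo markers were close to zero in all 8 libraries (0 of 12 tested, summed level 4.66 to 13 CPM, counts per 1000000 after scaling, in ddc and 3.32 to 7.18 in SDC:GFP wild type) while the green-seedling markers RBCS1A, LHCB1.1, LHCB1.3 and RCA were present in both groups, with a summed level of 1010 to 1200 CPM in ddc and 1060 to 1160 CPM in SDC:GFP wild type, where removal of duplicate reads limits the counts of such abundant transcripts, and 0 flower markers were called, with SEP3 alone high enough to test.

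The mutated genes were examined before other genes. CMT3 (AT1G69770, chromosome 1 from 26248118 to 26253687) was at 18.6, 23.9, 20.2 and 20.1 CPM in ddc and at 82.3, 77.3, 80.4 and 68.1 CPM in SDC:GFP wild type. DRM2 (AT5G14620, chromosome 5 from 4715105 to 4718704) was at 17.1, 15.2, 23 and 15.8 CPM in ddc and at 30.7, 31.7, 34 and 31.1 CPM in SDC:GFP wild type. The groups did not overlap for either gene, and the log2 fold changes were -1.88 (SE 0.0959, adjusted p = 4.3e-09, quasi-likelihood test of edgeR) and -0.84 (SE 0.129, adjusted p = 9.34e-05, the same edgeR test). Both genes were also below all 14 wild-type libraries in ddc, and their transcripts remained countable, so that counts over a whole gene do not show whether the transcript is intact. The wild types differed at DRM2, which was at 52.69 to 62.15 CPM in the Col-0 libraries, all above SDC:GFP wild type. In morc1 replicates 1 to 4 DRM2 was at 29.5 to 35 CPM. CMT3 was at 39.01 to 74.63 CPM in the Col-0 libraries. What set SDC:GFP wild type apart from Col-0 at DRM2 was not tested. DRM1 (AT5G15380) was at 0 to 0.777 CPM in ddc and 0 to 0.298 CPM in SDC:GFP wild type, too low to test, and its state in these seedlings was not detectable at this depth.

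SDC was on in every ddc library. It was at 391, 329, 373 and 348 CPM in ddc, and at 1.31, 4.53, 7.75 and 2.99 CPM in SDC:GFP wild type, a log2 fold change of 6.41 (SE 0.164, adjusted p = 3.63e-11 from edgeR). The other 10 wild-type libraries were at 0.172 to 1.42 CPM, morc1 was at a mean of 42.9 CPM, and ddc/med13 was at 245 to 298 CPM. The level in ddc thus lay far above every wild-type library and above ddc/med13. Whether the transgene carries any part of the SDC transcript is not given in the sources used here, and its share of these counts was not tested. The authors removed duplicate reads, which limits how high a gene can be counted, and SDC reached 0.658 counts per exonic base in ddc, where the highest of any gene was 0.793, so the fold change is a compressed one.

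ROS1 went the other way. It was at 0.388, 0.621, 0 and 0 CPM in ddc and at 90.1, 89.6, 102 and 77 CPM in SDC:GFP wild type, a log2 fold change of -8.23 (SE 0.265, adjusted p = 1.25e-10 from edgeR). All 10 other wild-type libraries were between 76.8 and 103 CPM, and ddc/med13 was at 0 to 0.883 CPM, so both lines that lack the 3 methyltransferases had almost no ROS1 transcript and all wild-type libraries had much of it. None of the other 3 demethylase genes (DME, DML2 and DML3) was called.

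**Figure D1:**
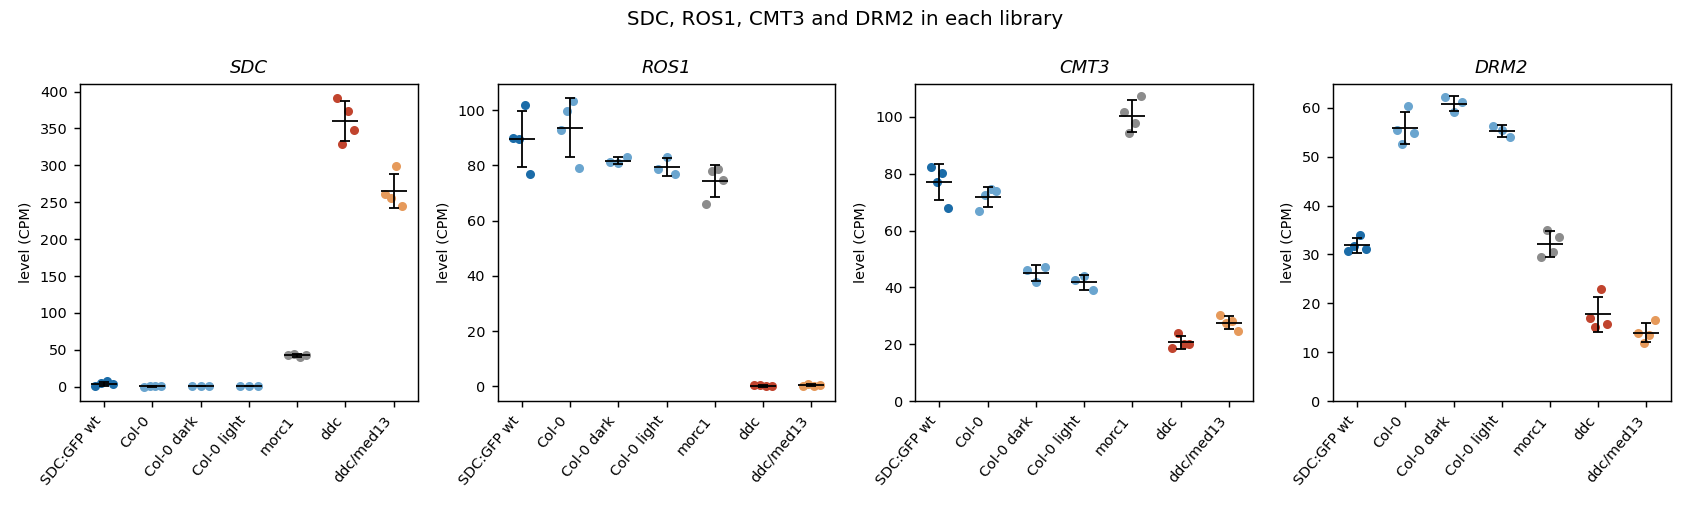
Levels of SDC, ROS1, CMT3 and DRM2 (y axis, CPM) in each library of 7 groups (x axis); points are libraries and bars are the mean and SD. SDC is above 300 CPM in each ddc library and below 8 CPM in each SDC:GFP wild-type library, and ROS1 is below 1 CPM in each ddc library.

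Over the whole table, 2385 features were higher in ddc (12.4% of 19203 tested) and 2850 were lower (14.8%), taking changes over 1.5-fold with an adjusted p below 0.05 from edgeR, with a median log2 fold change over all features of 0.0077. Against Col-0 in place of SDC:GFP wild type, 1524 were higher (7.71% of 19770) and 2062 lower (10.4%), and against morc1 replicates 1 to 4 2297 were higher (12% of 19182) and 2943 lower (15.3%). The calls were therefore split by the other wild-type libraries. Of the 14, the 10 that are not SDC:GFP wild type held 5696151 to 6752546 counts, more than any ddc library, and since duplicate reads were removed, abundant transcripts are compressed more in deeper libraries. The part of depth in the order of ddc and these 10 was not tested, for the genes below included. Of the features called up, 732 had all 4 ddc libraries above all 14 wild-type libraries (3.81% of those tested), and of those called down, 709 had all 4 below them (3.69%). In ddc/med13, whose libraries were not used in this split, 234 of the 732 (32%) and 207 of the 709 (29.2%) also lay outside all 14 libraries on the same side, compared with 6.01% and 6.85% of all features tested. Of the features called but inside the range of the 14, ddc/med13 lay outside for 73 of 1653 up (4.42%) and 218 of 2141 down (10.2%). The range of the same 14 libraries was used for ddc and for ddc/med13, and a narrow range is easier to leave for both. The part of this in these shares was not tested. Without ddc replicate 4, 721 were above and 767 below, of which 663 and 641 were shared with the sets from all libraries.

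By class, transposable element (TE) identifiers, which the files list beside the genes, were called up at 14 of 41 tested (34.1%) and down at 12 (29.3%). At 5 of the 14 no count was seen in any SDC:GFP wild-type library, and an identifier that passed the filter on low counts only through ddc had to differ. Without that filter 87 were up and 51 down of 1432, beside 2802 and 3268 of all 27087 features, and nothing is read from these shares. Of the 14 that rose, 11 lay above all 14 wild-type libraries, and of the 12 that fell, 0 lay below them. The highest of the 14 was AT5TE72200, at a mean of 174 CPM in ddc and 109 in SDC:GFP wild type, and the other 13 were at 18.3 CPM or less. Pseudogenes were called up at 32 of 107 (29.9%) and down at 19 (17.8%), protein-coding genes at 2248 of 18760 (12%) and 2784 (14.8%). Rises and falls were spread over the chromosomes, with 11.6% to 13.4% of tested features up and 14.4% to 15.7% down on each of the 5. Within 500 kb of DRM1, DRM2 and CMT3, where DNA from the mutant parents would be linked to the mutations, 12.7%, 10.8% and 12.7% of features were up, close to the share over all features.

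A set of 21 features had at most 3 counts in each of the 14 wild-type libraries, were called up in ddc, and had no overlap. They were 7 TE identifiers, 5 pseudogenes and 9 protein-coding genes, and 10 of them were on chromosome 3, 5 on chromosome 2, 3 each on chromosomes 1 and 5, and 0 on chromosome 4. At 13 of them no count was seen in any SDC:GFP wild-type library, and at 9 none in any of the 14. In ddc/med13, 19 of the 21 (90.5%) had all 4 libraries above all 14 wild-type libraries, beside 6.01% of all features. With at most 3 counts in each of the 14, a few counts in ddc/med13 already lie above them, so nothing is read from these shares. Their being near zero in wild type and higher in ddc is how they were chosen, so the levels below are a description.

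AT3G29078, annotated as an uncharacterized protein (chromosome 3 from 11065643 to 11069288), was the most abundant of them. It was at 31.1, 28.3, 42.2 and 47.6 CPM in ddc, without a count in any of the 14 wild-type libraries and in morc1, and at 47.1 to 52.4 CPM in ddc/med13. Taken against a floor of 3 counts over the 4 SDC:GFP wild-type libraries it was at least 163-fold higher. AT3G28899, on the same chromosome from 10902184 to 10902515 and also of unknown function, was at 28.7, 27.3, 23 and 27.2 CPM in ddc, at most 0.604 CPM in the 14 and 19 to 20.9 CPM in ddc/med13.

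AT3G29631, annotated as a nuclease, was at 25.2, 24.5, 19.9 and 21.1 CPM in ddc and at most 0.596 CPM in the 14. It was also on in morc1, at a mean of 24.3 CPM, and against morc1 its log2 fold change was -0.11. AT3G29631 was thus the member of the set for which ddc did not stand apart from morc1. In ddc/med13 it was lower, at 2.75 to 17.1 CPM.

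Ta11-like non-LTR retrotransposons, elements that move through an RNA copy, gave 2 members. AT2G41590 was at 13.2, 19.9, 22.7 and 34.5 CPM in ddc, 13.9 to 18.2 CPM in ddc/med13 and at most 0.596 CPM in the 14 wild-type libraries. AT2G02103 was at 11.3, 11.5, 11.5 and 19.4 CPM in ddc and 6.79 to 9.14 CPM in ddc/med13, without a count in the 14, at least 58.8-fold higher. Both were off in every morc1 library of replicates 1 to 4, so that, unlike AT3G29631, they were on in the ddc lines and off in morc1.

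A pair on chromosome 3, AT3G60950 (from 22524475) and AT3G61030 (from 22585655), had no count in any wild-type library. Both are annotated as C2 calcium and lipid-binding proteins. AT3G60950 was at 13.2, 12.4, 12.9 and 13.1 CPM in ddc (at least 56.2-fold higher) and AT3G61030 at 5.83, 8.08, 7.32 and 9.39 CPM (at least 33.7-fold higher). Every 50-base window of both genes occurs elsewhere in the genome, so the reads could not be assigned to 1 of the copies with certainty. The other members were lower, and the 4 TE identifiers AT3TE64435, AT3TE45330, AT2TE78210 and AT1TE58825 were between 5.23 and 11.1 CPM in all ddc libraries and at most 0.299 CPM in the 14. AT3G26486 was at 7.38, 7.46, 9.06 and 8.72 CPM, AT1G36975 at 6.21, 5.59, 6.28 and 8.05 CPM, and AT3G15600 at 3.5, 7.14, 8.37 and 4.69 CPM.

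Members differed in ddc/med13. AT5G28335 was at 3.88, 4.97, 5.93 and 7.04 CPM in ddc and 4.93 to 9.14 CPM in ddc/med13, although 63.6% of its windows occur elsewhere. AT3TE63950 was at 5.83, 5.59, 5.23 and 4.69 CPM in ddc and at only 0 to 0.883 CPM in ddc/med13, and AT2G19850, annotated as a transcription repressor, at 3.5, 6.83, 3.49 and 5.03 CPM in ddc and 0 to 2.06 CPM in ddc/med13. These last were the 2 of 21 for which ddc/med13 overlapped the wild-type libraries. The remaining members, AT2TE02290, AT5TE23185, AT5G33390 (glycine-rich protein) and AT1G33850 (ribosomal protein S19 family), were at 3.35 to 7.04 CPM in ddc. With at most 1 count allowed in each of the 14 libraries the set had 15 members, and with at most 5 counts 26.

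**Figure D2:**
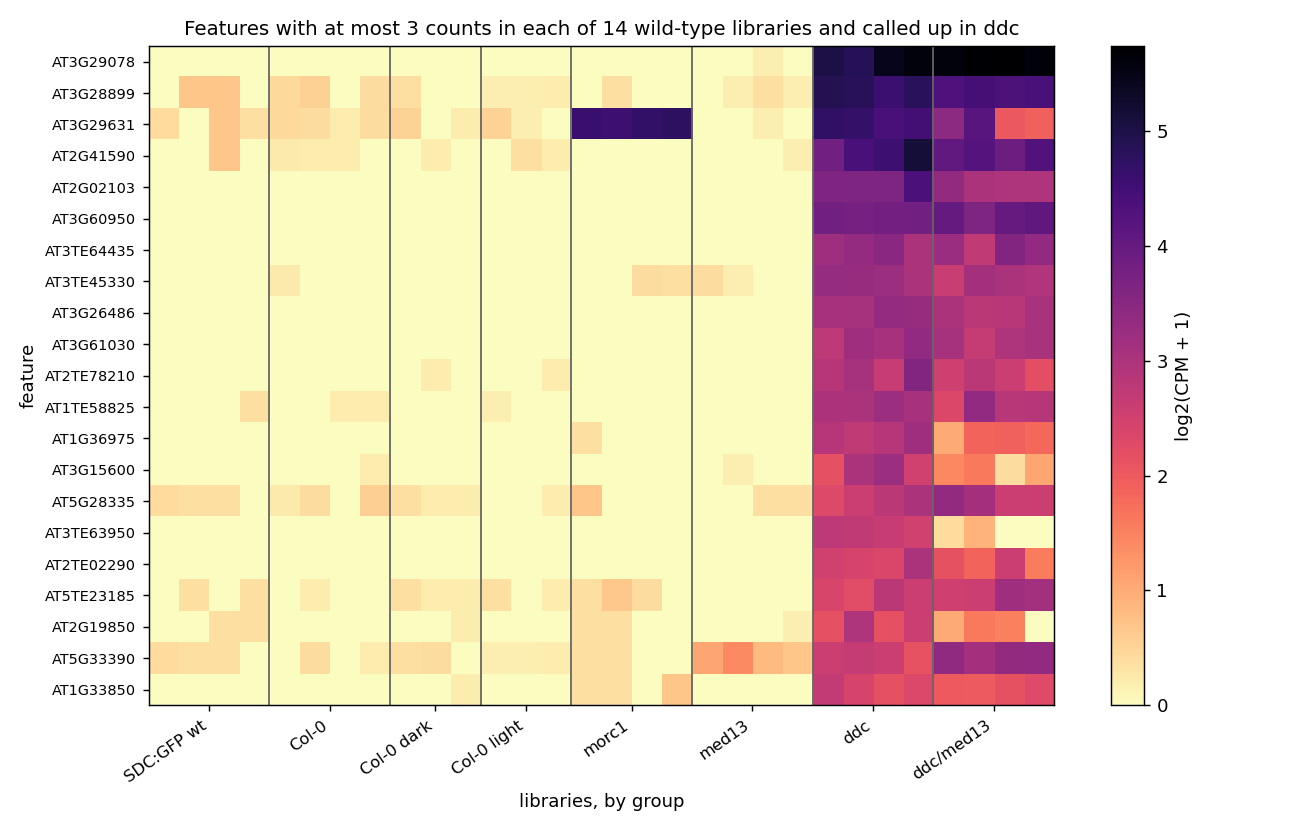
Levels of the 21 features near zero in wild type (rows), as log2(CPM + 1) (color scale), in each library (columns) of 4 wild-type groups, morc1 replicates 1 to 4, med13, ddc and ddc/med13. The wild-type columns are at or near 0, the ddc columns are filled in every row, and in 19 of the 21 rows all ddc/med13 columns are above the wild-type columns.

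Of the 21, 14 are genes with a position in the annotation. Pseudogenes made up a median of 12% of the genes within 250 kb of them, compared with 3.05% for all tested genes, and 5 of the 14 (35.7%) lay where the share was over 20%, compared with 4.62% of all tested genes. Their promoters, taken from 250 bases before to 50 after the start, held a median of 6.5 CG and 10 CNG sites, beside 6 and 6 for all tested genes. Genes near zero in wild type that stayed so in ddc were not compared. The part of the choice of near-zero genes in these values was therefore not tested. The 2354 genes called up and the 2838 called down had medians of 6 and 6, the same as all tested genes.

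Among the 15 largest rises, 13 were in this set. The others were PUM9, which encodes an RNA-binding Pumilio protein, at 13.2, 12.4, 22.3 and 37.5 CPM in ddc and at most 0.596 CPM in SDC:GFP wild type, and AT1G11362, annotated as an invertase or pectin methylesterase inhibitor. PUM9 was at 0.16 to 3.63 CPM in the other wild-type libraries and at 1.1 to 1.85 CPM in ddc/med13, which overlapped those libraries. AT1G11362 was at 5.23 to 7.77 CPM in ddc and without a count in SDC:GFP wild type, but at 1.95 to 4.42 CPM in the other 10 wild-type libraries.

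The 15 largest falls were of another kind. AT2G27420, a cysteine proteinase, was without a count in ddc and at 49.3, 30.2, 47.1 and 43.6 CPM in SDC:GFP wild type, a log2 fold change of -10.04, and AT2G15020 was at 0.621 to 0.777 CPM in ddc and 134, 127, 139 and 128 CPM in SDC:GFP wild type. Both were near zero in the other 10 wild-type libraries as well, at no more than 0.325 and 0.43 CPM, and high in morc1, at means of 51.9 and 102 CPM. Of the 15, ROS1 alone was below all 14 wild-type libraries. The other 12 were ASG4, AT2G16367, PAP1, NIG1, AT3G09450, BBX30, CYP82C4, IRT1, AT5MAT, AT2G22590, AT4G34550 and GSTF12. At each of these 12, ddc overlapped the other wild-type libraries.

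Stress genes were described by lists, whose counts are set against the 12.4% up and 14.8% down of all features and the median of 0.0077. Of the heat-shock genes (chaperones and the factor HSFA2), 8 of 13 tested rose and 0 fell, with a median log2 fold change of 2.54. The rise was far larger in ddc replicate 4 than in the other ddc libraries, since the summed level of the 17 genes was 344, 296, 398 and 2870 CPM in ddc replicates 1 to 4, and 338, 320, 357 and 321 CPM in SDC:GFP wild type. Without ddc replicate 4, 7 rose and 2 (HSP18.2 and the galactinol synthase gene GOLS1) fell, with a median of 1.01, and HSP90.1 was no longer called.

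Several small heat-shock protein genes, whose products hold unfolded proteins in solution, were higher in each ddc library than in SDC:GFP wild type. AT1G53540, an HSP20-like chaperone, was at 32.6, 22.4, 24.1 and 170 CPM in ddc and at 0.327, 1.21, 2.98 and 0.597 CPM in SDC:GFP wild type. HSP17.4 was at 26.4, 11.5, 32.1 and 163 CPM in ddc and at 1.63, 2.72, 4.77 and 1.79 CPM in SDC:GFP wild type. The groups did not overlap for either gene, and all 4 ddc libraries were also above the other wild-type libraries, which reached 20.8 and 7.85 CPM. HSP17.6A was at 4.27, 4.97, 5.93 and 130 CPM in ddc, and at 0.327 to 2.98 CPM in SDC:GFP wild type, but in the other wild-type libraries it reached 7.37 CPM. HSP17.6II behaved alike, at 4.35 to 120 CPM in ddc.

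The log2 fold changes were 5.55 for AT1G53540 (SE 0.979, adjusted p = 0.00031 from edgeR) and 4.39 for HSP17.4 (SE 0.903, adjusted p = 0.001, the same edgeR test). Without ddc replicate 4 they were 4.28 (SE 0.314, adjusted p = 1.13e-09 from edgeR) and 3.03 (SE 0.357, adjusted p = 6.75e-07), and those of HSP17.6A and HSP17.6II went from 4.87 and 4.86 to 2.01 and 2.17. HSFA2, HSA32 and AT1G07400 also rose, at 2.56, 2.54 and 3.52 with all libraries and 1.01, 1.26 and 1.84 without that one, and HSP101, HSP70-4 and BAG6 were not called, at 233, 426 and 152 CPM in ddc replicate 4 and no more than 38.7, 103 and 37.3 CPM in the other ddc libraries. In ddc/med13, for which 9.01% of 19284 features were up against SDC:GFP wild type and 14% down, 0 heat-shock genes rose and 2 fell. AT1G53540 was at no more than 1.65 CPM there. What set ddc replicate 4 apart was not tested.

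The promoter of HSP17.4 (chr3:16984868-16985167, - strand, TAIR10.1) is shown for a known heat-response element. The 300 bases before the start are printed with the 2 matches to the heat-shock element in capitals. The letters searched, on both strands, were GAA, TTC and GAA with any 2 bases between neighbours.
HSP17.4: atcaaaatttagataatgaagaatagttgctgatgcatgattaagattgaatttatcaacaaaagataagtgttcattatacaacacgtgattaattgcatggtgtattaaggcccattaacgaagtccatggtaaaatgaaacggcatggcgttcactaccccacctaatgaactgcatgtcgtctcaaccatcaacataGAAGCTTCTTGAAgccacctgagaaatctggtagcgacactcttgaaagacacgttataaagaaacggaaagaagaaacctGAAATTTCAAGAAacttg
The pattern was found in 5 of the 17 promoters of the list and in 0.486% of 37899 promoters of all annotated genes, each taken as the 300 bases before the start.

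**Figure D3:**
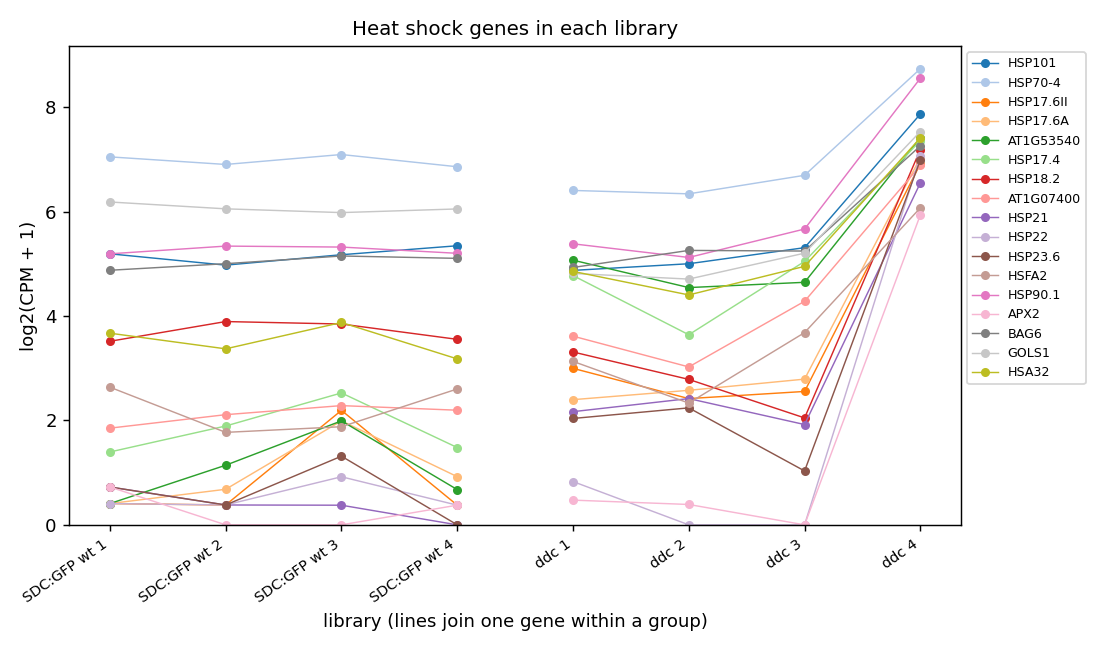
Levels of the 17 heat-shock genes, as log2(CPM + 1) (y axis), in the 4 SDC:GFP wild-type and 4 ddc libraries (x axis); points are libraries, colors are genes, and lines join the points of a gene within a group only to guide the eye. All 17 genes are highest in ddc replicate 4, and AT1G53540 and HSP17.4 are also higher in the other 3 ddc libraries than in wild type.

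Touch and rapid stress genes moved both ways, with 5 of 26 up and 11 down (median -0.10). Against Col-0, 5 of the list were up and 2 down in ddc, beside 7.71% and 10.4% of all features. In ddc/med13, 19 of the list were up and 0 down against SDC:GFP wild type, beside 9.01% and 14% of all features. The falls were thus not shared by ddc/med13. TCH4, a xyloglucan endotransglucosylase of the cell wall that is induced by touch, was at 226, 190, 227 and 208 CPM in ddc and at 43.8, 46.5, 32.5 and 33.5 CPM in SDC:GFP wild type, a log2 fold change of 2.45 (SE 0.0971, adjusted p = 6.57e-10 from edgeR). TCH3, a calmodulin-like calcium sensor, was at 188, 166, 202 and 175 CPM in ddc and at 46, 46.8, 29.8 and 31.7 CPM in SDC:GFP wild type. Both were above all 14 wild-type libraries, in which TCH4 reached 101 and TCH3 111 CPM, and both were also above them in ddc/med13, at 147 to 214 and 124 to 166 CPM. ERF104, an ethylene response factor, was the other of the 3 genes of the list above all 14, at 71.5 to 98.2 CPM in ddc. The zinc finger gene ZAT11 (log2 fold change -1.66), the deadenylase gene CAF1a (-1.47) and the ethylene synthesis gene ACS6 (-1.43) were among the 11 that fell.

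Of 14 salicylic acid genes tested, 4 rose and 3 fell. WRKY70, a transcription factor of the salicylic acid response, was at 36.9, 43.2, 54 and 59.3 CPM in ddc and at 16.3, 11.8, 8.94 and 6.87 CPM in SDC:GFP wild type, and it was above all 14 wild-type libraries, the highest of which was at 34.7 CPM. WRKY18, CBP60G and SAG101 also rose, and PR5, EDS5 and the salicylic acid synthesis gene ICS1 fell. Of the immune receptor genes of the NLR class, RPS4, RPS2 and RPM1 rose and SNC1 and RPP1 fell, 0 of these outside all 14 libraries. Against Col-0, RPS4 was at a log2 fold change of -0.18 and RPP1 at 0.14, and neither was called.

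Jasmonate genes were lower, with 11 of 18 tested down and 1 up (JAZ10, a repressor of the response), a median of -0.77. The genes that fell include those of enzymes that make jasmonate from plastid lipids (LOX2, LOX3, LOX4, AOS, AOC1, AOC2 and OPR3) and the response genes VSP1, VSP2 and CORI3. LOX2 was at 104, 159, 65.9 and 46.9 CPM in ddc and at 382, 333, 381 and 338 CPM in SDC:GFP wild type, a log2 fold change of -1.91 (SE 0.234, adjusted p = 1.32e-05 from edgeR). Against Col-0, 8 genes of the list were also down and 0 up. In ddc/med13, 9 genes of the list were up and 3 down against SDC:GFP wild type, with a summed level of 1370 to 1840 CPM, beside 617 to 903 CPM in ddc and 1450 to 1600 CPM in SDC:GFP wild type. The lower level was thus not shared by ddc/med13. The Col-0 libraries in the dark and light were lower too, LOX2 reaching down to 63.5 CPM, and 0 of the 11 were below all 14 wild-type libraries.

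For the cold and drought genes the wild type used decided the direction of several members. Of 14 COR genes, which encode protective proteins induced by cold, drought and abscisic acid, 7 fell and 1 (RD29B) rose, with a median of -0.65, whereas against Col-0 5 rose and 1 fell. RAB18, a dehydrin, was at 26.8, 18, 16.4 and 19.1 CPM in ddc, 48.6, 46.8, 55.4 and 44.2 CPM in SDC:GFP wild type and 8.65 to 12.2 CPM in Col-0. CBF2, a transcription factor that activates these genes, was at 3.69 to 6.83 CPM in ddc, 11.1 to 21.1 CPM in SDC:GFP wild type and 0.158 to 1.03 CPM in Col-0. Both fell against SDC:GFP wild type (log2 fold changes -1.29 and -1.59) and rose against Col-0 (0.90 and 3.19). Of 5 factors of the CBF and DREB families tested, CBF2, CBF3 and TINY fell and DREB2A and DREB2B rose. DREB2A, a drought and heat factor, was at 35, 29.2, 39.7 and 77.5 CPM in ddc, above all 14 wild-type libraries, which reached 25.9 CPM.

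**Figure D4:**
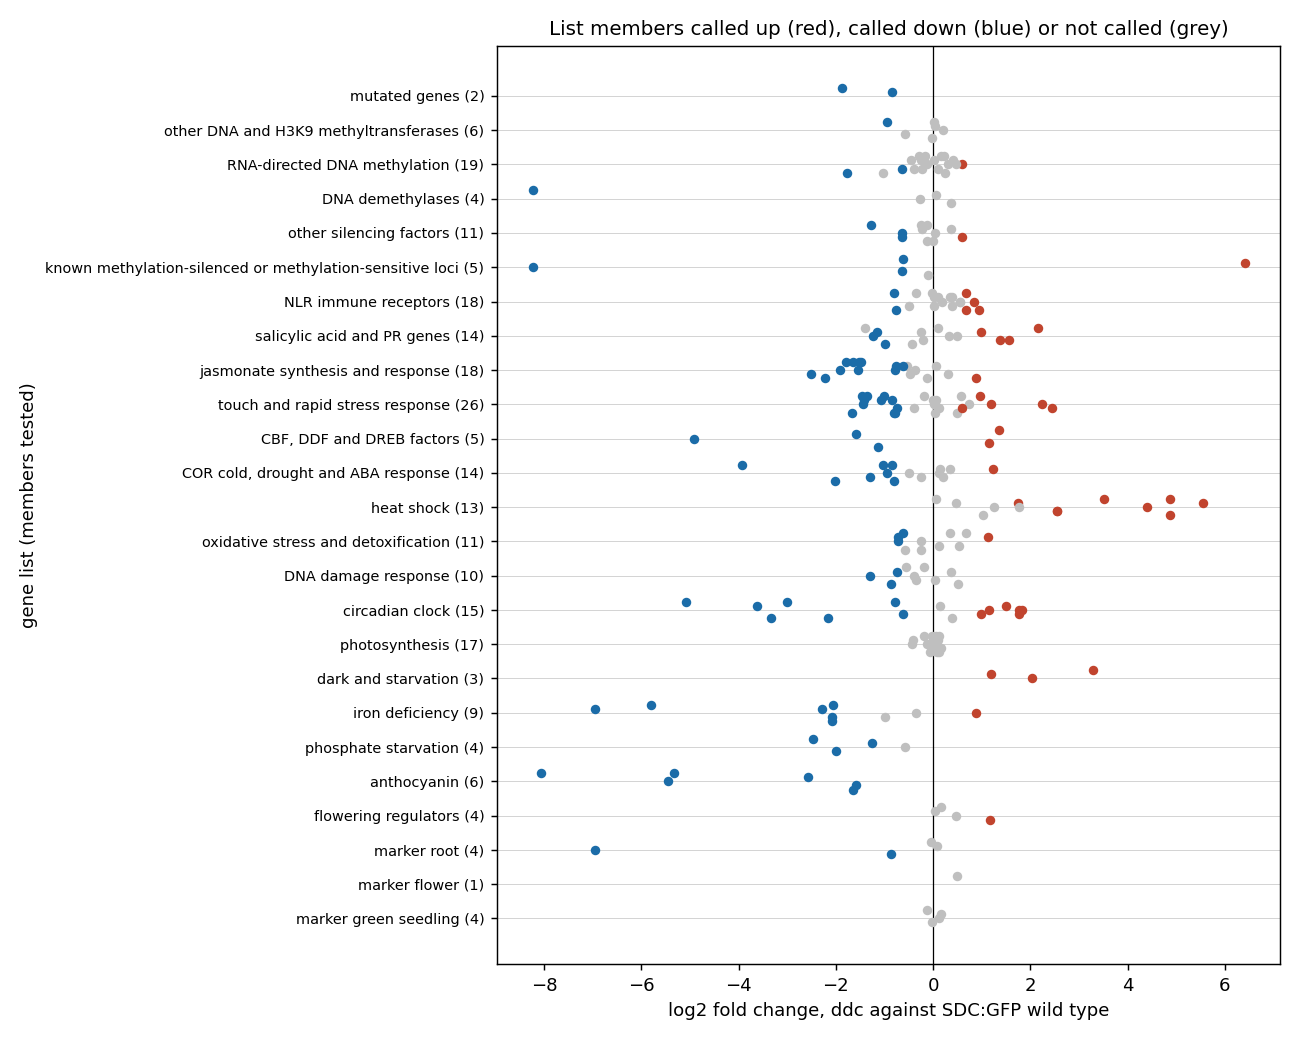
Log2 fold change of each tested gene in ddc against SDC:GFP wild type (x axis), by gene list (y axis); red points were called up, blue points were called down and grey points were not called. Anthocyanin genes are all down, the 3 starvation genes tested are all up, heat-shock genes are up or not called, and clock genes lie on both sides of 0.

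Of 15 circadian clock genes tested, 6 rose and 7 fell, with a median of 0.15. Those that fell against SDC:GFP wild type include genes of the morning and those that rose genes of the evening. Against Col-0, 7 of the list were up and 0 down in ddc, so the falls were not seen with that control. In ddc/med13, 4 were up and 7 down against SDC:GFP wild type. LHY and CCA1, the related Myb factors that peak at dawn, were at 0.335 to 1.17 and 8.72 to 24.5 CPM in ddc and at 26 to 30 and 106 to 119 CPM in SDC:GFP wild type. TOC1, an evening repressor of both, was at 249, 224, 271 and 288 CPM in ddc and at 73.8, 75.5, 75.4 and 80 CPM in SDC:GFP wild type, a log2 fold change of 1.76 (SE 0.0735, adjusted p = 9.27e-10 from edgeR).

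LUX, a part of the evening complex, was at 165, 151, 179 and 199 CPM in ddc and at 54.2, 49.2, 49.7 and 50.5 CPM in SDC:GFP wild type. LUX, TOC1 and the pseudo-response regulator gene PRR5 were above all 14 wild-type libraries and LHY was below them, but the wild types themselves were far apart. LHY ranged from 1.44 to 128 CPM in the other 10, and CCA1 was at 0.325 to 0.947 CPM in Col-0, so that against Col-0 CCA1 was higher in ddc (log2 fold change 4.61). GI, an evening gene, was at 178 to 248 CPM in ddc, 188 to 205 in SDC:GFP wild type and 6.67 to 12.3 in Col-0. In ddc/med13, LHY was at 5.24 to 10.2, CCA1 at 30 to 39.6 and TOC1 at 132 to 151 CPM, between ddc and SDC:GFP wild type. The methods of the study give 1 shared harvest but no clock hour, and the part of the time of day in these values was not tested.

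The promoter of TOC1 (chr5:24674663-24674962, + strand, TAIR10.1) is shown for the evening element, a letter pattern bound by the dawn factors. The capitals mark the 1 match to AAAATATCT, searched on both strands, which lies here on the opposite strand.
TOC1: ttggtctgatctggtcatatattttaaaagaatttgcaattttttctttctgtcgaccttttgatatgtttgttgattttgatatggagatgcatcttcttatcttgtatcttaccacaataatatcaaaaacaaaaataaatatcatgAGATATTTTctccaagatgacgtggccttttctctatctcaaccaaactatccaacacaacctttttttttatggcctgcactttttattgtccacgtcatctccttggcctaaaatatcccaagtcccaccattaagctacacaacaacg
The pattern was found in 3 of the 15 clock promoters, those of LUX, PRR5 and TOC1, and in 2.51% of 37899 promoters, each taken as the 300 bases before the start. It was in 6.11% of the promoters of genes above all 14 wild-type libraries (44 of 720), beside 2.94% of all tested genes. The share was 3.57% for all genes called up, 3.42% for all called down and 3.24% for those below all 14.

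**Figure D5:**
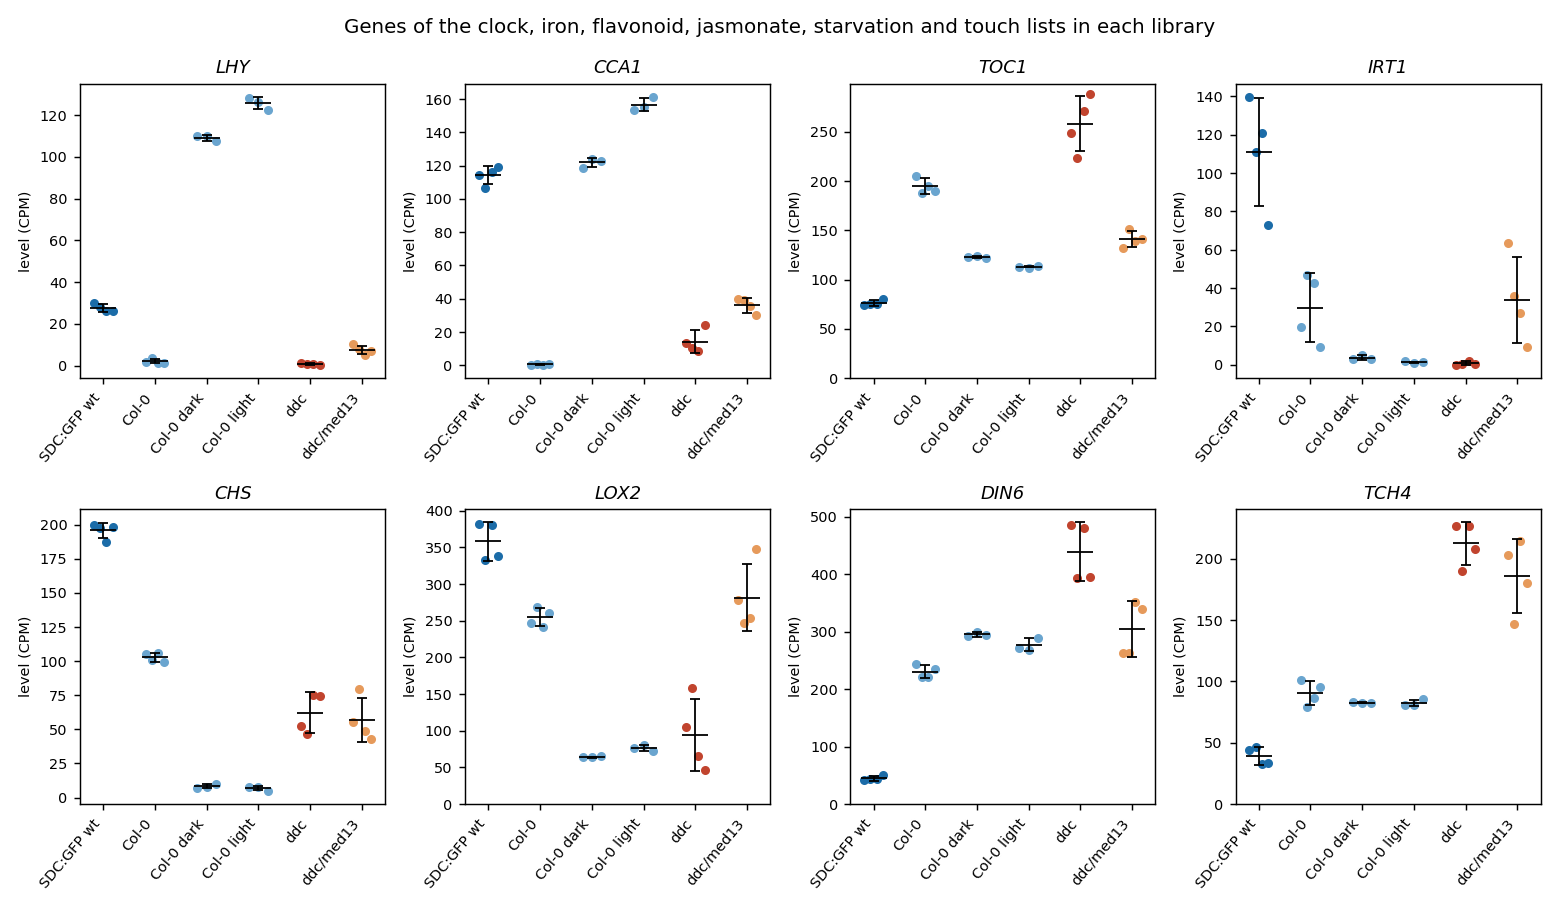
Levels (y axis, CPM) of LHY, CCA1, TOC1, IRT1, CHS, LOX2, DIN6 and TCH4 in each library of 4 wild-type groups, ddc and ddc/med13 (x axis); points are libraries and bars are the mean and SD. The wild-type groups differ widely in LHY, CCA1 and CHS, while ddc is above all of them in TOC1, DIN6 and TCH4.

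Starvation genes, which are repressed by sugar and light, rose at 3 of 3 tested, each above all 14 wild-type libraries, which include Col-0 kept in the dark. The list has 4 members, of which 1 was too low to test here, and against Col-0 3 of the list were up and 1 down. DIN6, an asparagine synthase that stores nitrogen when carbon is short, was at 486, 394, 480 and 395 CPM in ddc and at 41.5, 43.8, 43.2 and 50.2 CPM in SDC:GFP wild type, a log2 fold change of 3.29 (SE 0.0886, adjusted p = 4.62e-11 from edgeR). DIN10, a raffinose synthase family gene, was at 572 to 707 CPM in ddc and 140 to 186 in SDC:GFP wild type, and DIN1 at 181 to 238 and 75.8 to 102 CPM. The other wild-type libraries were at 220 to 300 CPM for DIN6 and 315 to 383 for DIN10, closer to ddc than to SDC:GFP wild type, and against Col-0 the log2 fold changes were 0.96 and 0.86. These 10 libraries are the deeper ones, and DIN6 and DIN10 reached 0.502 and 0.629 counts per exonic base in ddc, so duplicate removal could hold their levels down more in the 10 than in ddc; its part in the order was not tested.

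Iron genes fell, with 6 of 9 down and 1 up and a median of -2.07. IRT1, the main iron transporter of the root surface, was at 0, 0.621, 2.09 and 0.67 CPM in ddc and at 140, 111, 121 and 72.9 CPM in SDC:GFP wild type, and FRO2, the reductase that supplies it, at 0.697 to 2.35 and 34.6 to 122 CPM. FER1, which encodes an iron storage protein and is high when iron is plentiful, rose to 224, 193, 226 and 222 CPM from 115, 120, 119 and 114 CPM. FER1 was above all 14 wild-type libraries (log2 fold change 0.89, SE 0.055, adjusted p = 2.6e-08 from edgeR), and IRT1 and FRO2 overlapped the lowest of them. Of the 4 root markers, IRT1 itself and the root hair gene COBL9 fell, while PYK10 and EXPA7 were not called.

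The anthocyanin genes fell together, 6 of 6, with a median of -3.95. PAP1, the Myb factor that activates the pathway, was without a count in ddc and at 11.8, 5.13, 17 and 8.96 CPM in SDC:GFP wild type, and CHS, the enzyme of its first step, at 52.4, 46.3, 75 and 74.8 CPM in ddc and 200, 197, 188 and 198 in SDC:GFP wild type. Against Col-0, 5 of the 6 were also down, but 0 were below all 14 wild-type libraries. Phosphate starvation genes fell at 3 of 4, and of these SPX1 was at log2 fold changes of -1.99 against SDC:GFP wild type and 0.087 against Col-0.

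Of 19 RdDM genes tested, set against the 12.4% up and 14.8% down of all features, AGO4 and AGO6, which hold the small RNAs, fell (log2 fold changes -0.63 and -1.77) and DRD1, a remodeler, was called up (0.59), a call that was lost in 6 of the 8 fits that left out 1 library. AGO6 was at 1.55 to 3.14 CPM in ddc and 7.17 to 9.53 CPM in SDC:GFP wild type, below all 14 wild-type libraries in ddc, but ddc/med13 was at 3.7 to 10.2 CPM. Of 6 other DNA and H3K9 methyltransferase genes tested MET1 alone was called, and of 11 other silencing genes DDM1, IBM1 and VIM3 fell and AT5G50780 rose. Without ddc replicate 4, VIM3 (log2 fold change -0.54) and AT5G50780 (0.49) were not called, which left 0 up and 2 down. MET1, which maintains CG methylation, was at 70.3, 76.1, 75 and 54.3 CPM in ddc and at 128, 141, 136 and 127 CPM in SDC:GFP wild type, and DDM1, a remodeler needed for methylation of TEs, at 22.1, 18, 24.8 and 15.8 and at 52.9, 45.3, 50.6 and 45.1 CPM. Both were below all 14 wild-type libraries in ddc, and in ddc/med13 they were at 89 to 122 and 34.5 to 39.7 CPM, within the range of those libraries. IBM1, a histone demethylase gene whose transcript is known to depend on methylation of an intron, was at 31 to 37.2 CPM in ddc, 27.4 to 30 CPM in ddc/med13 and 47.4 to 76.8 CPM in the other 10 wild-type libraries.

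Of the 5 tested loci known to respond to methylation, SDC rose and ROS1, IBM1 and EPF2 fell, the last at a log2 fold change of -0.62 and lost as a call on leaving out any of 4 of the 8 libraries. PAI2 was not called, and FWA, QQS and SUP were too low to test. Of the DNA damage genes, TSO2 and BRCA1 fell. Oxidative stress genes rose at 1 and fell at 3 of 11, and FLC, the floral repressor, rose to 11.1 to 14.3 CPM from 4.48 to 6.2 CPM as 1 of 4 flowering regulators.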

How the data were processed

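Stranded mRNA libraries gave single-end reads. After trimming with Trim Galore, the authors mapped reads to TAIR10 (STAR), discarded PCR duplicates (Picard) and assigned the rest to Araport11 genes and TEs with HTSeq 0.6.1. The deposited values are raw counts. Duplicate removal lowers the counts of the most abundant transcripts. Of 37338 genes listed beside 31189 TE identifiers, 37050 were found in the RefSeq annotation of TAIR10.1, which gave positions, symbols and promoter sequences. TE positions were not used here, and some genes of the lists are not reported here.

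Features were filtered with filterByExpr, scaled by TMM and tested with edgeR 4.0.16 in R 4.3.3 (glmQLFit and glmQLFTest, 4 ddc and 4 SDC:GFP wild-type libraries, no covariate), with Benjamini-Hochberg adjustment over all features tested and features over 1.5-fold with an adjusted p below 0.05 were called. SE is the log2 fold change divided by the square root of F. CPM values use 1 TMM scaling over all 50 libraries, while log2 fold changes come from the fit. A fold against a group without counts was taken against 3 counts over its 4 libraries. The deviations of same-numbered libraries from their group means had correlations of -0.0319 to 0.0426, so the numbers do not pair them. The SDC:GFP wild-type libraries differed from each other by no more than sampling noise over all genes (chi-square per degree of freedom 0.867 to 0.975) but not at single genes such as CYP82C4 (3.88 to 62.4 CPM), and were kept as 4 libraries. The study describes each biological replicate for RNA as a pool of several seedlings. The p-values measure the spread between these libraries, which is a spread between pools and not between single plants.

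On simulated counts for this comparison (19048 features), the test called 40.4% of 1.5-fold, 84% of 2-fold and 100% of 4-fold and 8-fold changes. It also called 8 of 18855 unchanged features. A call needs an estimate over 1.5-fold, so the rule itself limits the share for true 1.5-fold changes. Few features were changed and no difference between sets of libraries was simulated, so these values do not cover calls from such a difference. Named genes were the mutated genes and SDC, the 15 largest rises and falls among calls without overlap and with at least 1 CPM, up to 4 called examples a list and up to 15 features near zero in wild type; others were named after their values were seen. The members, gene lists and rules were chosen with earlier results of these data known. Alternatives were DESeq2 1.42.0, RLE scaling, no filter, glmTreat, a replicate block, nuclear features, Col-0 or morc1 as control, 1 fit of 5 groups and each library left out. Leaving out ddc replicate 4 for the lists and the split by 14 wild-type libraries were chosen after seeing the data.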

Additional observations from a re-analysis of the deposited data

Results flagged for a closer look

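Among the 100 named genes, 1 library lay far from the other 3 of its group in 12 of 159 gene and group pairs. Of the 12, 8 were ddc replicate 4. Chance alone would give about 1 in 20 in genes picked without their values. Many named genes were picked by the size of their change, which 1 high library can raise. The heat-shock genes AT1G53540, HSP17.4, HSP17.6A and HSP17.6II were among them, so these counts are not set against chance. The other 13 heat-shock genes were examined as well because ddc replicate 4 was seen to be high in that list. The counts that include them are not set against chance either. With them, 1 library lay apart in 25 of 181 pairs. Of the 25, 21 were ddc replicate 4, and 17 of these were the genes of the heat-shock list, each highest in that library. In ddc replicate 4 the levels were 426.5 CPM for HSP70-4, 375.8 for HSP90.1, 233.3 for HSP101, 184.7 for GOLS1, 170 for AT1G53540, 169.6 for HSA32, 163.3 for HSP17.4, 152.5 for BAG6, 145.2 for HSP18.2 and 133.8 for HSP22. They were 130.4 CPM for HSP17.6A, 126.1 for HSP23.6, 120 for HSP17.6II, 117.3 for AT1G07400, 92.87 for HSP21, 66.38 for HSFA2 and 60.35 for APX2. The cause was not tested.

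The same library was also apart from its group at AT2G02103 (19.45 CPM), AT2TE02290 (7.041 CPM), WRKY18 (42.58 CPM) and AT2G21640 (23.13 CPM), each higher there than in the other 3 ddc libraries. The remaining 4 were AGO4, lowest in ddc replicate 1 (68.37 CPM), AT4G34550, lowest in SDC:GFP wild type replicate 2 (5.735 CPM), and CBP60G and HSP17.6II, highest in SDC:GFP wild type replicate 3 (6.255 and 3.574 CPM).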

How the results depend on the processing

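The test against a 1.5-fold change and Col-0 as control lowered the counts of calls. With glmTreat 1295 features were up and 1625 down, with Col-0 as control 1524 and 2062, and with morc1 as control 2297 and 2943. Leaving out each library in turn gave 2210 to 2483 up and 2752 to 3234 down, DESeq2 2234 and 2768, RLE scaling 2316 and 2922, and no filter 2802 and 3268. Without the filter, 87 TE identifiers were up and 51 down of 1432 tested. With the replicate block, 2369 features were up and 2848 down.

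Of 99 named genes tested, 83 kept their call under glmTreat and 93 to 99 under every other setting that kept SDC:GFP wild type as control, of 96 with an adjusted p in DESeq2 and 99 otherwise, and 0 changed direction. With Col-0 as control, 82 could be tested, of which 54 kept the call, 17 lost it and 11 changed sign. Of the 11, 3 (CBF2, RAB18 and CCA1) were called in the other direction and 8 were not called. The 11 were DRD1 (log2 fold change -0.24), AT5G50780 (-0.014), RPS4 (-0.18), RPP1 (0.14), CBF2 (3.19), DREB2B (-0.0035), RD20 (0.78), RAB18 (0.90), CCA1 (4.61), SPX1 (0.087) and PAP17 (0.41). With morc1 as control, AT3G29631 (-0.11) and CBF2 (0.47) changed sign and neither was called. The cause was not tested. At this depth, features of a few counts per library, DRM1 among them, were not resolved.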

Other observations

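The genes below were chosen after their values were seen and are given as values. Genes of aliphatic glucosinolate synthesis, which make sulfur-containing defense compounds, fell at 14 of 15 tested, with a median log2 fold change of -2.02 beside 0.0077 over all features. Their summed level was 470 to 521 CPM in ddc, 1740 to 1860 in SDC:GFP wild type, 696 to 726 in Col-0 and 625 to 805 in ddc/med13, so that ddc was below both wild types. Of the 14, 3 were below all 14 wild-type libraries, and 8 of the list were also down against Col-0. The list was added because its members were among the larger falls.

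Beyond the features near zero in wild type, several loci were on in both ddc lines and low in the wild-type libraries. AT3G01345, an uncharacterized protein on chromosome 3, was at 134, 134, 135 and 111 CPM in ddc and 131 to 167 CPM in ddc/med13, and at most 6.55 CPM in the 14 wild-type libraries. AT5G35935 was at 51.3, 53.1, 54.4 and 72.1 CPM in ddc and 45.9 to 56.1 CPM in ddc/med13, and at most 8.96 CPM in the 14. AT2G01422, a gene for a non-coding RNA, was at 41.2 to 51.2 CPM in ddc and 43.3 to 48.1 CPM in ddc/med13, and at most 2.42 CPM in the 14. These were off or low in morc1, at means of 2.69, 4.99 and 2.56 CPM.

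A pair of loci was high in morc1 too. MRD1 was at 51.7, 47.8, 48.8 and 49.6 CPM in ddc and at a mean of 44.3 CPM in morc1, beside 0 to 12.5 CPM in the 14 wild-type libraries, and AT3G29639, which lies near AT3G29631 on chromosome 3, was at 36.9 to 47.6 CPM in ddc, 53.6 CPM in morc1 and at most 2.13 CPM in the 14. ACS11, an enzyme of ethylene synthesis, was at 33 to 41.6 CPM in ddc and 21.2 to 43 CPM in ddc/med13, and at most 10.2 CPM in the 14.

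Besides ROS1, a few genes were below every wild-type library in both ddc lines. AT5G17700, a transporter of the MATE family, was at 3.5, 0.621, 1.05 and 2.35 CPM in ddc, 3.31 to 5.59 CPM in ddc/med13 and 8.69 to 67.6 CPM in the 14 wild-type libraries. CYP702A5, a cytochrome P450, was at 2.17 to 3.83 CPM in ddc, 2.06 to 4.41 CPM in ddc/med13 and at least 17.6 CPM in the 14. AT5G15950, an adenosylmethionine decarboxylase, was at 4.53 to 7.38 CPM in ddc and 83.9 to 104 CPM in SDC:GFP wild type, but at 10.5 to 15.1 CPM in Col-0 and 4.01 to 9.13 CPM in ddc/med13. AT1G48670, an auxin-responsive GH3 family gene, and AT1G48580, nearby on chromosome 1, were at no more than 1.05 CPM in ddc and at least 3.27 CPM in the 14, and at 0 to 0.339 and 1.1 to 2.65 CPM in ddc/med13.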
